A study of Mus musculus with 7 samples.

Results

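Integrins are the receptors through which endothelial cells hold on to the matrix around the vessel. The values of 10 integrin subunit genes, Itga1, Itga2, Itga5, Itga6, Itga9, Itgav, Itgb1, Itgb3, Itgb4 and Itgb5, are described here in endothelial cells of mouse skeletal muscle. They were chosen by gene symbol, and all 10 were found among the 30899 genes of each library. The study compared 4 libraries labelled knockout, from mice designed to lack the glucose transporter GLUT1 in the endothelium, with 3 libraries labelled wild type. Cells were isolated with beads and their RNA was taken at once, with no treatment. The driver of the deletion, age and sex of the mice, and whether each library came from its own animal, are not given in the sources used here, so p-values measure the spread between these libraries.

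An integrin is a dimer of 1 alpha and 1 beta chain, and the pair decides what it binds. The beta1 chain, from Itgb1, joins with most of these alpha chains: with alpha1 (Itga1) or alpha2 (Itga2) it binds collagens, with alpha5 (Itga5) fibronectin, with alpha6 (Itga6) laminins, and with alpha9 (Itga9) tenascin C and EMILIN1, among other ligands, an integrin known for its role in lymphatic valves. The alphav chain (Itgav) joins beta3 (Itgb3) or beta5 (Itgb5) in receptors that read the RGD motif of vitronectin and related proteins. The beta4 chain (Itgb4) pairs with alpha6 and anchors cells to laminin. Inside the cell, talins and kindlins bind the tails of beta chains and switch integrins to their binding state, and tetraspanins organise them in the membrane.

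The libraries held totals of 14592369 to 15731074 normalised counts in the knockout-labelled group and 11855652 to 13441728 in wild type, the lowest in wild-type library 1. Genes listed at 0 numbered 7301 to 9306 in knockout-labelled and 2794 to 6551 in wild-type libraries, and wild-type library 1 stood apart with 2794. Slc2a1, which encodes GLUT1, averaged 1075 ± 263 normalised counts in knockout-labelled and 1127 ± 123 in wild-type libraries (SD, n = 4 and 3; log2 fold change -0.09, adjusted p = 0.738 in limma), so the targeted gene was not lower at the level of this measure and every direction rests on the labels. The defining endothelial markers were abundant: Cdh5 averaged 37302 normalised counts in knockout-labelled and 28352 in wild-type libraries, and Pecam1 34549 and 29070. The 8 endothelial markers summed to 106530 to 117159 in knockout-labelled and 78037 to 102489 in wild-type libraries, and 2 of them rose and 1 fell. Markers of other cells were present too. The summed counts of 7 Schwann cell markers were 26318 to 36022 in knockout-labelled and 15002 to 20006 in wild-type libraries. Those of 6 smooth muscle markers were 50288 to 61451 in knockout-labelled and 30341 to 38528 in wild-type libraries. Those of 8 fibroadipogenic progenitor markers were 13662 to 17338 in knockout-labelled and 6461 to 11451 in wild-type libraries. Most of that sum came from Cd34, Col3a1 and Col1a1, which averaged 5289, 5088 and 4141 in knockout-labelled libraries. Dcn and Lum also averaged higher in knockout-labelled libraries. Pdgfra (76.2 against 94.6 in wild type), Pi16 (123 against 145) and Dpp4 (7.42 against 11.1) averaged lower there. Tenocyte markers (5 genes) summed to 568.3 to 1066 in knockout-labelled and 368.3 to 531.6 in wild-type libraries. Satellite cell markers (7 genes) summed to 2942 to 3357 in knockout-labelled and 2292 to 2845 in wild-type libraries. Most of that sum came from Vcam1 and Itga7, which were not called, and the satellite cell markers that rose were Pax7 and Myod1. Of the tested markers 5 of 7 of Schwann cells, 6 of 6 of smooth muscle, 2 of 7 of fibroadipogenic progenitors, 2 of 5 of tenocytes and 2 of 7 of satellite cells rose. Of all tested genes 5.98% rose. The sums and calls in this paragraph are under the authors' scaling, in which every knockout-labelled total lay above every wild-type total. The sums were not repeated with equal totals. Pericyte sums overlapped, at 14054 to 19204 in knockout-labelled and 11832 to 20568 in wild-type libraries, with 0 of 7 called. So did muscle fibre sums (375.7 to 552.7 and 224.2 to 548.1, 0 of 6 called). Macrophage sums (223.1 to 369 and 180.4 to 245.3) overlapped too, and 1 of 5 tested markers rose, Lyz2 (log2 fold change 1.67). The macrophage markers differed in direction, with C1qb at 1.92 and Cd68 (-1.19), Csf1r (-1.18) and Mrc1 (-0.16) below 0. Sums of 5 keratinocyte markers (27.1 to 51.4 and 18.9 to 34.8) also overlapped, with 1 of them tested and 0 called. Krt5, chosen for the same list, was not among the genes of the libraries. None of the markers found was listed at 0 in all libraries. Schwann, smooth muscle and connective tissue cells also express integrins, and the part of these cells in the values below was not tested. In bulk RNA, a different number of cells of a type and a different amount of RNA per cell cannot be told apart.

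Of the 10 subunits 2 rose and 0 fell at an adjusted p under 0.05 in limma, fitted on log2 of the normalised count plus 1 for 16931 genes, and 4 had an unadjusted p under 0.05. Over all tested genes 11.5% passed, 5.98% higher and 5.53% lower, so the members' count is small and near that background. The share of all genes with an unadjusted p under 0.05 was not counted, but it is well above 11.5%. It includes all 3842 genes with an adjusted p under 0.10. Unadjusted counts here and below therefore do not stand out by themselves. The balance of directions rests on the scaling: 228 genes rose and 1645 fell with libraries scaled to equal totals, and 228 rose and 1340 fell with the trend on transcript length removed. The subunits that rose were Itgb1, the common beta chain, and Itga9. The groups did not overlap for 3 subunits, Itgb1 and Itga9 (higher) and Itga5 (lower), where 28.8% of all tested genes did not overlap, 14.7% higher and 14.1% lower. The median log2 fold change of the 10 subunits was 0.21, against 0.02 for all tested genes. It was -0.017 with equal totals, where the median of all genes was -0.21, and 0.088 with quantile normalization, where that of all genes was 0.028. With the length trend removed the medians were 0.26 for the subunits and -0.11 for all genes. Genes with a mean of at least 50, a filter that all 10 subunits pass, had a median of 0.14 under the authors' scaling.

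**Figure D1:**
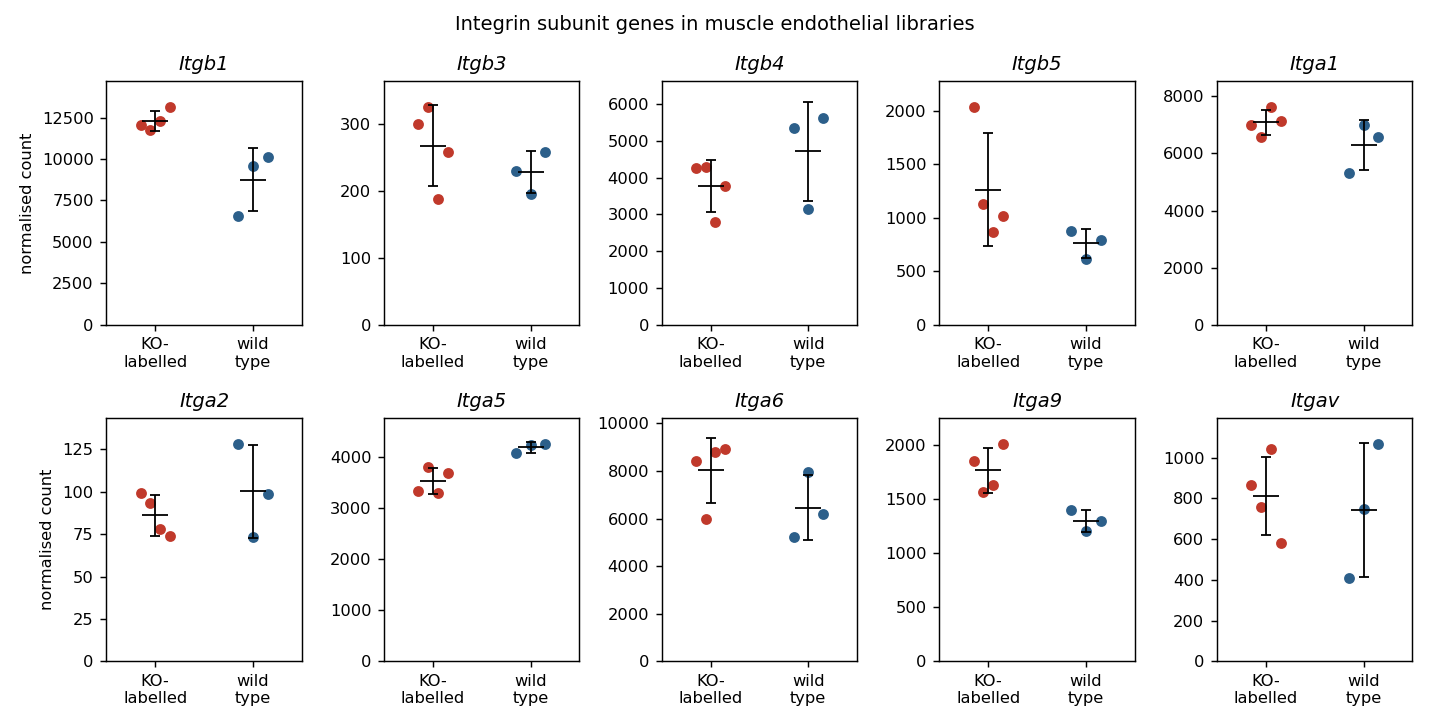
Normalised count of each integrin subunit gene (vertical axis, from 0, own scale per panel) in the 4 knockout-labelled (red) and 3 wild-type (blue) libraries; points are libraries, and bars give the mean and SD. Itgb1 and Itga9 lie wholly higher and Itga5 wholly lower in the knockout-labelled libraries, while the other 7 overlap.

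Itgb1 was the most abundant subunit. It stood at 12034, 11748, 12270 and 13129 normalised counts in knockout-labelled libraries 1 to 4 and at 6572, 9577 and 10098 in wild-type libraries 1 to 3. The 4 knockout-labelled libraries lay close together, whereas wild-type library 1 was well under the other wild-type libraries. The means were 12295 ± 596 in knockout-labelled and 8749 ± 1903 in wild-type libraries (SD, n = 4 and 3), and the estimate on the log2 scale was 0.515 with a standard error of 0.15 (95% interval 0.20 to 0.83, adjusted p = 0.0415 in limma). The call held in 1 of 7 fits with a library left out, that without wild-type library 3 (adjusted p = 0.0303), and the estimate fell to 0.32 without wild-type library 1 (adjusted p = 0.139). With libraries scaled to equal totals it was 0.29 (adjusted p = 0.124).

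Among the other beta chains none passed the test. Itgb5, the vitronectin receptor chain, had the largest estimate of the 10, with 2036, 1133, 864.1 and 1015 normalised counts in knockout-labelled libraries 1 to 4 and 877.8, 613.8 and 794.8 in wild-type libraries 1 to 3. Knockout-labelled library 1 stood far above the rest, and library 3 just under wild-type library 1, the only overlap. The log2 fold change was 0.66 (SE 0.24, adjusted p = 0.0797), 0.405 without knockout-labelled library 1 and 0.82 without library 3, where it passed (adjusted p = 0.042). Itgb3 encodes the partner of alphav in a receptor known from growing vessels, and of the Itga2b chain in platelets. Itgb3 was low, at 187.5 to 325.7 in knockout-labelled and 195.9 to 258.1 in wild-type libraries (log2 fold change 0.21, SE 0.22, adjusted p = 0.52). The sums of 8 platelet markers overlapped, at 161.9 to 315.6 in knockout-labelled and 137.6 to 263.2 in wild-type libraries. Of these, Gp1ba did not overlap, at 27.6 to 57.5 in knockout-labelled and 73.9 to 111.8 in wild-type libraries. Its log2 fold change was -1.02 and that of Gp6 -0.34, while Ppbp (1.02), Itga2b (0.63) and Pf4 (0.55) lay above 0. Of the 5 tested platelet markers 0 were called. The part of platelets in the Itgb3 value was not tested. Itgb4 stood at 4260, 4287, 2785 and 3785 in knockout-labelled and at 5357, 3157 and 5625 in wild-type libraries, with wild-type library 2 below 3 of the 4 knockout-labelled values (log2 fold change -0.29, SE 0.20, adjusted p = 0.323).

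Of the 6 alpha chains Itga9 rose. It had 1852, 1566, 1626 and 2008 normalised counts in knockout-labelled libraries 1 to 4 and 1401, 1201 and 1294 in wild-type libraries 1 to 3. Every knockout-labelled library was above every wild-type one, and the log2 fold change was 0.44 (SE 0.13, 95% interval 0.15 to 0.72, adjusted p = 0.0489 in limma). That adjusted p lay just inside the threshold, and Itga9 passed in 0 of 7 fits with a library left out (adjusted p = 0.0507 to 0.129) and not with equal totals (adjusted p = 0.289). Lymphatic vessels are a known site of alpha9, and the 7 lymphatic markers overlapped between groups, with sums of 5131 to 5956 in knockout-labelled and 4713 to 5808 in wild-type libraries and 0 of 7 called (0 at an unadjusted p under 0.05). Their median log2 fold change was 0.16. Prox1 was at -0.45, Ccl21a at -0.51 and Mmrn1 at -0.40, while Reln was at 0.37, Pdpn at 0.41, Flt4 at 0.18 and Lyve1 at 0.16. Smooth muscle is another known site, and the sums of its markers are given above. The part of either cell type in the Itga9 value was not tested.

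Itga5, the fibronectin receptor chain, pointed the other way. Its normalised counts were 3339, 3815, 3300 and 3689 in knockout-labelled libraries and 4070, 4241 and 4259 in wild-type libraries. The groups did not overlap, and wild type varied little, but the fold change was small (log2 fold change -0.25, SE 0.11, 95% interval -0.494 to -0.001) and did not pass (adjusted p = 0.153). With equal totals it was -0.47 and with quantile normalization -0.40, and both passed (adjusted p = 0.0205 and 0.0369). Both lie below the medians of the 10 subunits given above. Itga5 was the only subunit called under these scalings, under which Itgb1 and Itga9 were not called.

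The collagen and laminin receptor chains did not pass. Itga1 stood at 6580 to 7621 normalised counts in knockout-labelled and 5327 to 7007 in wild-type libraries (log2 fold change 0.18, SE 0.13, adjusted p = 0.353). Itga2, its relative, was the lowest subunit, with 74.0 to 99.15 in knockout-labelled and 73.6 to 128.3 in wild-type libraries (log2 fold change -0.19, SE 0.27, adjusted p = 0.658). Itga6 had 8436, 5994, 8782 and 8919 in knockout-labelled and 5230, 7940 and 6201 in wild-type libraries. Here knockout-labelled library 2 lay among the wild-type values and wild-type library 2 near the knockout-labelled ones (log2 fold change 0.32, SE 0.17, adjusted p = 0.204). Itgav spread more within wild type, at 411.0 to 1068, than between groups, the knockout-labelled libraries lying at 582.8 to 1042 (log2 fold change 0.21, SE 0.27, adjusted p = 0.618). The signs of Itga1, Itgav and Itgb3 turned with equal totals, so that only the estimates of Itgb1, Itgb5, Itga6 and Itga9 were above 0 under each scaling tried and those of Itga2, Itga5 and Itgb4 were below.

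**Figure D2:**
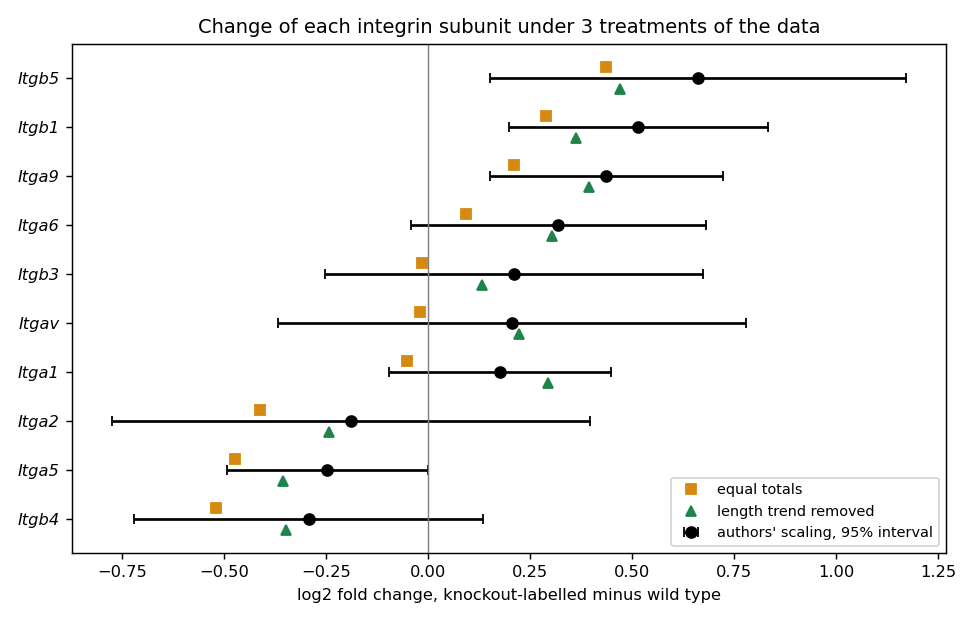
Log2 fold change of each integrin subunit, knockout-labelled minus wild type (horizontal axis), with the 95% interval from limma under the authors' scaling (black), and the estimate with libraries scaled to equal totals (orange squares) or with the trend on exonic length removed (green triangles). Itgb5, Itgb1, Itga9 and Itga6 lie right of 0, and Itga2, Itga5 and Itgb4 left of 0, in all of these.

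Transcript length moved with the fold change in these libraries. The integrin genes are long, with 3553 to 18599 exonic bases. Coding genes of that length range with a mean of 100 or more, 6578 in all, had a median log2 fold change of 0.09, against 0.63 for the 124 such genes shorter than 1000 bases. With the length trend removed, the log2 fold change was 0.36 for Itgb1 (adjusted p = 0.126) and 0.395 for Itga9 (adjusted p = 0.0729), and 0 of the 10 subunits passed.

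Per kilobase of exon, the 10 subunits had the same order in both groups except for Itga6 and Itga5. Itgb1 led with 3013 ± 146 normalised counts per kilobase in knockout-labelled and 2144 ± 466 in wild-type libraries (SD, n = 4 and 3), above Itga6 in 7 of 7 libraries. Itga6 followed with 890 ± 152 and 715 ± 152, and Itga5 with 717 ± 51.8 and 849 ± 21.2 in knockout-labelled and wild-type libraries. Itga6 was above Itga5 in 4 of 7 libraries, so these neighbours were not separated. Itgb4 (539 ± 100 and 672 ± 193), Itga1 (381 ± 23.1 and 339 ± 47.0), Itgb5 (355 ± 149 and 214 ± 38.0) and Itga9 (229 ± 26.6 and 169 ± 13.0) came next, in knockout-labelled and wild-type libraries in turn. The levels of Itgav, Itgb3 and Itga2 were under 100 per kilobase in all 7 libraries. Itgb4 was above Itga1, Itga1 above Itgb5 and Itgav above Itgb3 in 6 of 7 libraries each, and the remaining neighbours kept their order in all 7. With the length of the longest coding transcript in place of all exons, a choice made after the data were seen, Itga1 stood above Itgb4 in the knockout-labelled group and Itga6 above Itga5 in both groups. Some exons of Itga1 also belong to a second annotated gene on the same strand, Gm49395, at a mean of 70.6 normalised counts, and their reads cannot be told apart here.

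A ratio of partner chains within a library is not changed by a factor common to all its genes, though quantile normalization and removal of a length trend can change it. Of 10 known pairings or alternatives, 2 did not overlap between groups, Itga5 to Itgb1 and Itga1 to Itgb1, and both share Itgb1. Of single genes 28.8% did not overlap, so this count does not stand out. The count of Itga5 was 0.277, 0.325, 0.269 and 0.281 of that of Itgb1 in knockout-labelled libraries 1 to 4 and 0.619, 0.443 and 0.422 in wild-type libraries 1 to 3. The knockout-labelled ratios were all lower, and wild-type library 1 was the highest of all. The mean ratio of Itga5 to Itgb1 was 0.288 ± 0.025 in knockout-labelled and 0.495 ± 0.108 in wild-type libraries (SD, n = 4 and 3), a difference of -0.76 on the log2 scale. That difference was -0.75 with quantile normalization, -0.72 with the length trend removed and -0.59 without wild-type library 1. For Itga1 to Itgb1 the ratio was 0.582, 0.560, 0.621 and 0.543 in knockout-labelled and 0.811, 0.732 and 0.652 in wild-type libraries, a difference of -0.34 on the log2 scale. The highest knockout-labelled ratio and the lowest wild-type ratio lay close. With the length trend removed the difference for Itga1 to Itgb1 was -0.068, and Itga1 has the most exonic bases of the 10. The laminin receptor ratio Itga6 to Itgb1 overlapped (0.51 to 0.72 in knockout-labelled and 0.61 to 0.83 in wild-type libraries), as did Itga9 to Itgb1 (0.133 to 0.154 and 0.125 to 0.213). The count of Itgb4 was 0.317 to 0.715 of that of Itga6 in knockout-labelled and 0.398 to 1.024 in wild-type libraries. Itgb5 to Itgav overlapped broadly (0.83 to 2.35 in knockout-labelled and 0.75 to 2.14 in wild-type libraries), as did Itgb3 to Itgav (0.180 to 0.444 and 0.242 to 0.562). These ratios are descriptions with no test, and with chains of unequal length they do not count molecules.

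**Figure D3:**
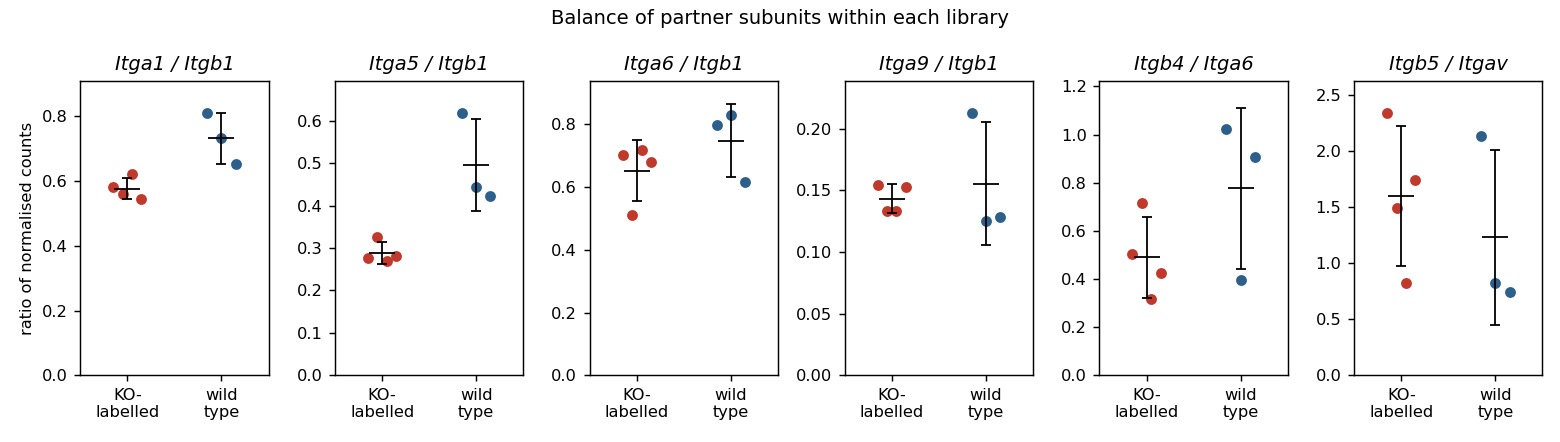
Ratio of the normalised counts of partner subunits (vertical axis, from 0, own scale per panel) in the 4 knockout-labelled (red) and 3 wild-type (blue) libraries; points are libraries, and bars give the mean and SD. Itga5 to Itgb1 and Itga1 to Itgb1 are lower in all 4 knockout-labelled libraries, and the other 4 ratios overlap.

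As a share of the alpha chains measured per kilobase, Itga6 made up 38.4% ± 4.32 in knockout-labelled and 33.0% ± 3.91 in wild-type libraries (SD, n = 4 and 3). Itga5 made up 31.3% ± 4.07 and 39.6% ± 3.11, Itga1 16.5% ± 0.739 and 15.7% ± 0.737, and Itga9 9.94% ± 0.772 and 7.92% ± 1.42, in knockout-labelled and wild-type libraries in turn. Of the beta chains, Itgb1 made up 76.4% ± 4.89 and Itgb4 13.6% ± 2.14 in knockout-labelled libraries, against 69.5% ± 8.81 and 22.1% ± 6.87 in wild type. All 10 shares overlapped between the groups.

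The start regions of Itgb1 and Itga5 are shown because these chains form the fibronectin receptor, and their ratio had the largest difference in size of the 10 ratios. RefSeq windows from 250 bases before to 50 after the start, on the build GRCm38.p6, matched 7 of the 10 subunits, 5 of them at the annotated 5′ end of the gene. The Itgb1 window is chr8:128685404-128685703 on the plus strand and the Itga5 window chr15:103366742-103367041 on the minus strand, each given 5′ to 3′ along its gene. Capitals mark the GC box letters GGGCGG on either strand.
Itgb1: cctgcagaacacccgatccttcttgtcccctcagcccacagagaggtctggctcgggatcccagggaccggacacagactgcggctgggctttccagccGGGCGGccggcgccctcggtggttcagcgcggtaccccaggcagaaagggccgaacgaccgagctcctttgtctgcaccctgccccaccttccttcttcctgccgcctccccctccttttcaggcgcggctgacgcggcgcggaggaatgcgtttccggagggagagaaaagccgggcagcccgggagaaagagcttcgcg
Itga5: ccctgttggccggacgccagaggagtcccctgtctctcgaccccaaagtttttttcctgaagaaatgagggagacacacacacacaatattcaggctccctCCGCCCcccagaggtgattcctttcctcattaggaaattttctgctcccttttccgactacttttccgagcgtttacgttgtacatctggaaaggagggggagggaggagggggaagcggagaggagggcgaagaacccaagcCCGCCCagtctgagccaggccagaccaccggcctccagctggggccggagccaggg
The Itgb1 window held 1 GC box and the Itga5 window 2, with a GC content of 67.3% and 58.7%. Neither held the letters CCAAT on either strand. Of 32851 promoter windows of this length 35.7% held a GC box and 37.4% the letters CCAAT, and matches to letters are a description of the sequence alone.

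The other 16 integrin subunits were a mixed group, of which 13 had a mean of at least 10 normalised counts. Of these 0 rose and 1 fell, with a median log2 fold change of -0.04, and this count does not stand out from the 11.5% of all tested genes. An unadjusted p under 0.05 was found for 5, a share that was not counted over all genes. The one that fell was Itgal, the alpha chain of the leukocyte integrin LFA-1, at 11.2, 3.38, 19.9 and 8.07 normalised counts in knockout-labelled and 29.8, 94.9 and 72.4 in wild-type libraries (log2 fold change -2.58, SE 0.60, adjusted p = 0.0223). Its partner Itgb2 was also low, at 10.6 to 47.2 in knockout-labelled and 5.02 to 17.0 in wild-type libraries (log2 fold change 0.99, adjusted p = 0.318). The 6 T and NK cell markers summed to 47.4 to 69.9 in knockout-labelled and 98.8 to 236.7 in wild-type libraries, and the part of such cells in the Itgal value was not tested. Most of the summed marker level came from Cd3d, at 26.3 to 42.0 in knockout-labelled and 74.9 to 176.9 in wild-type libraries. Cd3e and Nkg7 were at or near 0 in both groups, with at most 1.68 and 0.64 normalised counts, both in wild type. Cd8a, Ptprc and Trac overlapped between the groups. The Itgal call ended with quantile normalization (adjusted p = 0.0699) and without any 1 of the wild-type libraries (adjusted p = 0.077, 0.0748 and 0.0567 without libraries 1, 2 and 3).

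Genes that work with these integrins were set in 9 lists. Of 94 tested members 11 rose and 2 fell, or 13.8%, against 11.5% of all tested genes. With equal totals 4 rose and 6 fell, and with the length trend removed 5 rose and 4 fell. None of the 13 passed without wild-type library 1. The tetraspanins and the collagen and fibronectin ligands held 7 of them. Of 7 tetraspanins 4 rose and 3 did neither, with a median log2 fold change of 0.56. Cd151, which binds laminin receptors of the alpha3 and alpha6 type, was at 2488 to 3274 normalised counts in knockout-labelled and 1709 to 2114 in wild-type libraries (log2 fold change 0.60, SE 0.13, adjusted p = 0.0199). Cd9 (0.56, SE 0.13) and Cd81 (0.57, SE 0.15), partners of beta1 integrins, and Cd63 (0.94, SE 0.19), a tetraspanin of late endosomes, also rose. Without knockout-labelled library 1 or 4, Cd151, Cd9 and Cd81 did not pass and Cd63 did, and without wild-type library 1 the estimate of Cd81 was 0.37. With equal totals or with the length trend removed only Cd63 of these passed, at 0.71 and 0.76 on the log2 scale.

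Of 6 collagen and fibronectin ligand genes 3 rose and 3 did neither, with a median log2 fold change of 0.67. They were the fibrillar collagen genes Col3a1 (log2 fold change 1.03, SE 0.20, adjusted p = 0.0135), Col1a2 (0.68, SE 0.14) and Col1a1 (0.76, SE 0.21). Col1a1 and Col3a1 are also the 2 fibroadipogenic progenitor markers that rose. The other tested markers of that list had log2 fold changes of 0.68 (Dcn), 0.665 (Lum), 0.50 (Cd34), -0.27 (Pi16) and -0.32 (Pdgfra), and those of Dcn and Cd34 did not overlap between groups. Tenocytes also make fibrillar collagens, and their markers Tnmd (1.31, adjusted p = 0.0488) and Thbs4 (1.00, adjusted p = 0.0279) rose. The part of these cells in the collagen values was not tested. Of 6 laminin chains 0 passed (2 at an unadjusted p under 0.05), with Lamb1 at 0.45 (adjusted p = 0.087) and Lamc1 at 0.36 (adjusted p = 0.113), and Lamc1 at 0.17 without wild-type library 1. Of 12 other ligands 1 rose, Mfge8, an RGD protein read by alphav integrins, at 5216 to 6069 normalised counts in knockout-labelled and 3007 to 4347 in wild-type libraries (log2 fold change 0.64, SE 0.14, adjusted p = 0.0182). Mfge8, Col3a1 and Col1a2 also passed with equal totals, with quantile normalization and with the length trend removed, and of the fits with a library left out they failed in that without wild-type library 1 (adjusted p = 0.0969, 0.0675 and 0.101). Col1a1 failed under each of these 3 settings, without knockout-labelled library 1 or 4, and without wild-type library 1, where its estimate was 0.48 (adjusted p = 0.175).

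Of the tested genes on the inner side of the membrane 4 of 50 were called, which does not stand out from the 11.5% of all tested genes. Of 10 activators 1 rose, the GTPase gene Rap1a, which acts through talin, at 699 to 1007 normalised counts in knockout-labelled and 472 to 662 in wild-type libraries (log2 fold change 0.60, SE 0.17, adjusted p = 0.041). Of 8 restrainers 0 rose and 1 fell, Nisch, whose protein nischarin binds the tail of alpha5, at 3151 to 3793 in knockout-labelled and 4708 to 5175 in wild-type libraries (log2 fold change -0.51, SE 0.12, adjusted p = 0.0218). The fall of Nisch also passed with equal totals, with quantile normalization and with the length trend removed, and ended without knockout-labelled library 1 (adjusted p = 0.0524) or wild-type library 1 or 2 (0.0921 and 0.0541). Of 21 genes of the adhesion complex 2 rose, Rsu1 (0.44, SE 0.13, adjusted p = 0.0415) and Lims2 (0.54, SE 0.16, adjusted p = 0.0477, groups overlapping), both partners of integrin-linked kinase. Of 11 trafficking genes 0 passed (3 at an unadjusted p under 0.05), with Rab11a at 0.36 (adjusted p = 0.0821) and Nrp1 at 0.46 (adjusted p = 0.0874), or 0.24 without wild-type library 1. The calls of Rap1a and Lims2 ended with equal totals, with quantile normalization and with the length trend removed, and that of Rsu1 with equal totals and quantile normalization. With a library left out, Rap1a, Rsu1 and Lims2 each passed in 1 of 7 fits.

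**Figure D4:**
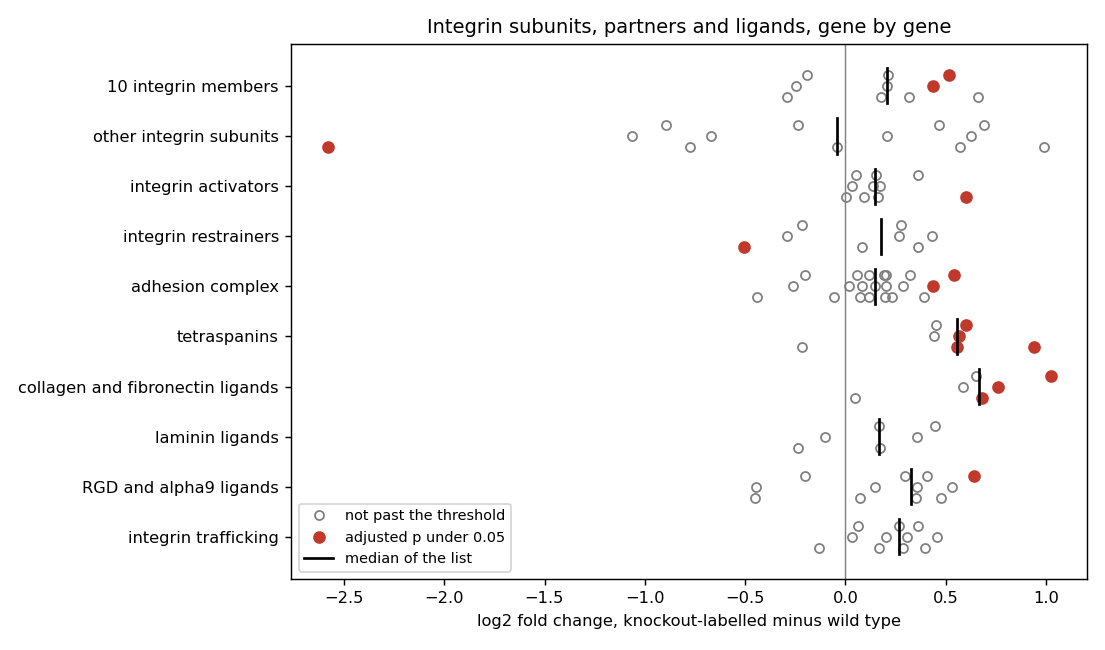
Log2 fold change, knockout-labelled minus wild type (horizontal axis), of each tested gene of the integrin subunits and of the 9 lists of other subunits, partners and ligands; filled red points passed an adjusted p of 0.05 in limma, open points did not, and a black bar is the median of a list. The 4 filled tetraspanin and 3 filled collagen points lie right of 0, while Itgal and Nisch are the filled points left of 0.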

How the data were processed

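Bulk RNA was sequenced by the submitters from 10 ng of RNA per library. The values are the authors' deposited normalised counts per gene, an expression signal in 1 table per library. GRCm39, DESeq2, DESeq, featureCounts and kallisto appear in the submitters' processing notes, with no roles given. The values are not whole reads, so no count model was run, and reads per library are unknown. Groups and numbers come from sample titles.

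A pseudocount of 1 was added before taking log2, which understates changes of low genes. Tests covered the 16931 genes whose mean over all libraries reached 10, with limma 3.58.1 in R 4.3.3 (lmFit, eBayes with trend), with Benjamini-Hochberg adjustment over all of them and a threshold of 0.05. Exonic lengths came by symbol from GENCODE M21, on an older build (96.4% of symbols matched). Integrins, lists and pairings were chosen with earlier results of these data known. Named genes are the integrins, Slc2a1, up to 4 called genes of a list with the smallest p or, with none, 2, the markers given and, chosen after their values were seen, Itgb2 and the single markers. Alternatives were other pseudocounts (0.5, 5), filters, scalings, limma options, a replicate block, removal of a length trend (loess, span 0.5), a threshold of 0.10 and leaving out each library.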

Additional observations from a re-analysis of the deposited data

Results flagged for a closer look

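In 37 sets of 4 knockout-labelled values, 2 held a library flagged as apart from the other 3. Chance gives about 1 set in 20, so 2 flags are near what chance gives. Itga6 was at 5994 normalised counts in knockout-labelled library 2, against 8436 to 8919 in the other knockout-labelled libraries and 5230 to 7940 in wild type. Without that library the log2 fold change of Itga6 was 0.45 (adjusted p = 0.0782 in limma), and it was 0.18 without wild-type library 1 (adjusted p = 0.573). The tetraspanin gene Cd9 was at 3490 in knockout-labelled library 3, against 3670 to 3703 in the other 3 and 2145 to 2878 in wild type. That gap is small beside the distance of Cd9 to wild type.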

How the results depend on the processing

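Under 20 alternatives, the rise of Itgb1 kept its direction in all and passed in 7, with estimates of 0.29 to 0.63. That of Itga9 kept its direction in all and passed in 5, with 0.21 to 0.49. The passes of both genes include the threshold of 0.10, which is applied to the main fit and so had to pass. The filters, limma without trend or with the robust option, and that threshold cannot change an estimate. Direction under these was set in advance. The count of integrins called, 2, was 1 with a pseudocount of 0.5, equal totals, median ratios, quantile normalization and array weights, and 0 with no filter on low values, without trend and with the length trend removed. Signs turned for Itga1 (-0.051 with equal totals, -0.025 with quantile normalization), Itgav (-0.019) and Itgb3 (-0.015 with equal totals). The 1949 genes called among all became 210 with no filter, 1053 with quantile normalization, 17 without trend and 3842 at a threshold of 0.10. The 13 of the partner lists became 0 with no filter, 7 with quantile normalization, 0 without trend and 25 at 0.10. Equal totals moved the median of all genes to -0.21. Leaving out 1 library gave 38 to 1992 genes, 0 to 1 integrins, 0 to 15 partner genes, -0.39 to 0.005 for Itga2, -0.17 to 0.52 for Itgav, 0.18 to 0.48 for Itga6, 0.058 to 0.256 for Itga1, 0.105 to 0.371 for Itgb3 and -0.56 to -0.14 for Itgb4. The 38 genes and 0 partner genes came without wild-type library 1, and 0 integrins in 5 of the 7 fits. In alternatives added after seeing the data, the log2 difference in ratio turned to 0.032 for Itga9 to Itgb1 and -0.091 for Itgb3 to Itgav with the length trend removed, and with 1 library left out ran from -0.211 to 0.172 and from -0.218 to 0.389. The causes were not tested.

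Same-numbered libraries did not deviate together (r = -0.081, -0.048 and -0.125 across genes), and no wild-type library correlated best with its own number. No pairing by number was seen, though with so few libraries this check could miss a small shared effect. With the replicate block, in which knockout-labelled library 4 has no counterpart and drops out, 119 genes, 0 integrins and 0 partner genes were called. Low genes such as Itga2 and Itgal are the least precise.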
